A study of Mus musculus with 20 samples.

Results

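The presynaptic vesicle release machinery is the set of proteins that store transmitter vesicles, dock and prime them at the active zone, fuse them with the membrane when calcium enters, and recycle the fusion proteins afterwards. Here it was taken as 48 genes chosen by symbol: synapsins, SV2 proteins, synaptotagmins and Doc2 proteins, synaptophysins, SNAREs with 1 endocytic adaptor, Munc13 and RIM proteins, complexins, Rab3 proteins and the SNARE disassembly factors. All 48 were among the 37607 gene rows of the bulk RNA-seq table. The single-cell table, with 47295 gene rows, held 47 of them, and Rims1 was not analysed there.

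Expression was measured in pyramidal cells of the mouse subiculum, a region through which the hippocampus sends its output. Fluorescent neurons were sorted by hand from slices in which the region had been dissected, per the labels. The 12 bulk libraries come from 4 populations with 3 biological replicates each, and a population is called by where its cells project: NA, PFC, RSC or VHN. The labels do not spell these out. The usual readings are nucleus accumbens for NA, prefrontal cortex for PFC and retrosplenial cortex for RSC, while VHN is left as given. The labels give no strain, age, sex, tracer or treatment for any population, nor how many animals gave a library, so p-values measure the spread between these libraries. Single cells of the same labelled type were sequenced in 384 wells on 4 plates of 96, with no projection target given. In bulk libraries, fewer cells of a type and less RNA per cell cannot be told apart.

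Release begins when synaptotagmins bind calcium and act on a complex of the vesicle SNARE synaptobrevin with the membrane SNAREs syntaxin and SNAP-25. Complexins bind this assembled complex and hold or promote fusion, Munc13 and RIM proteins bring vesicles into the primed state, and NSF with the SNAP adaptors pulls spent complexes apart. Different members of the synaptotagmin, complexin and SV2 families are used by different neurons, and synaptotagmin-2 is known as the fast calcium sensor of many hindbrain and spinal synapses and of fast-spiking interneurons.

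Of the 48 members, 46 had enough fragments to be tested, and Syt10 and Cplx3 did not. Levels are CPM, gene fragments as a share of the library total with library sizes adjusted by TMM, and a member was called at a Benjamini-Hochberg adjusted p under 0.05 from the quasi-likelihood test of edgeR. Among the 4 populations 17 members differed, which is 37% of those tested, against 8.93% of all 13916 genes tested. NA and PFC together against RSC and VHN together called 14 members as higher, against 7.58% of all genes, and 5 as lower, against 6.66%. The median log2 fold change was 0.38 over the tested members and 0.01 over all genes. Release genes are abundant in neurons, so the share among genes with a mean of at least 50 CPM was also taken. At that level 14 of 31 members (45.2%) were called among the 4 populations, against 20.9% of genes, and 15 of 31 (48.4%) between the 2 pairs of populations, against 28.4%. The libraries of NA and PFC did not overlap those of RSC and VHN for 11 members, 8 higher and 3 lower, against 7.52% of all genes.

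Together the members took 2.43% to 3.57% of the gene fragments of a library. Snap25 alone took 0.619% to 1.63%, and it was the most abundant member per length, with a mean of 6884 FPKM. Syt1, Syp and Sv2b followed, at 606, 483 and 409 FPKM. Depth was 10777271 to 20904122 gene fragments per library. NA replicate 2 and PFC replicate 3 had the fewest detected genes, 13911 and 13555 against 14265 or more in the others, and without both, 19 members were called among the populations, with 14 higher and 7 lower in NA and PFC.

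**Figure D1:**
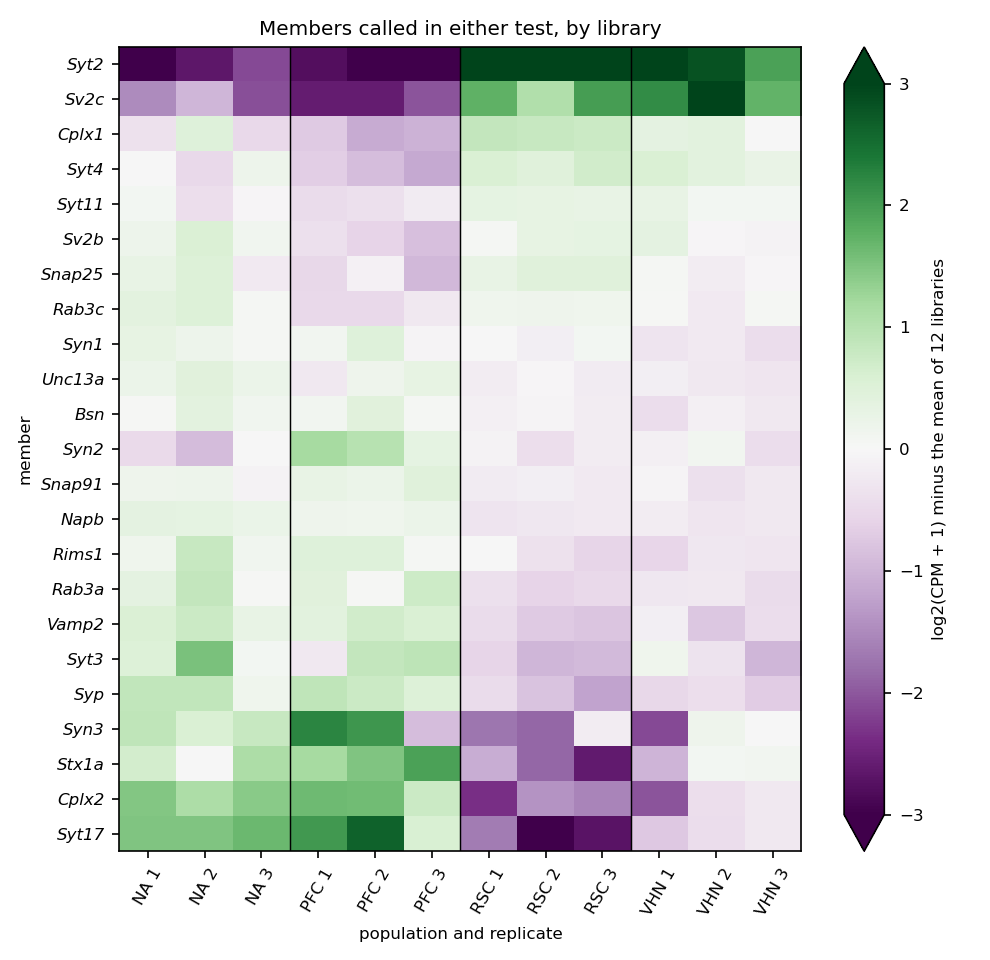
Colour shows log2(CPM + 1) of the 23 members called in the 4-group test or between the 2 pairs of populations, minus each member's mean over the 12 bulk libraries, with libraries in columns. Syt2 and Sv2c are low and Cplx2 and Syt17 are high in all 6 NA and PFC libraries.

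Syt2, Sv2c and Cplx1 were called higher in RSC and VHN, and Cplx2 and Syp in NA and PFC. Their promoters are shown so that the genes that differed in each direction can be compared. Each run gives 250 bases before to 50 bases after the transcription start from RefSeq (build GRCm38.p6, 5′ to 3′ on the gene's strand), with GC boxes (GGGCGG, or CCGCCC on the other strand) and the AP-1 motif (TGACTCA on either strand) in capitals. The deposited values were made on build mm9, so these coordinates belong to the sequences only.
Syt2 promoter 1, chr1:134646362-134646661, plus strand: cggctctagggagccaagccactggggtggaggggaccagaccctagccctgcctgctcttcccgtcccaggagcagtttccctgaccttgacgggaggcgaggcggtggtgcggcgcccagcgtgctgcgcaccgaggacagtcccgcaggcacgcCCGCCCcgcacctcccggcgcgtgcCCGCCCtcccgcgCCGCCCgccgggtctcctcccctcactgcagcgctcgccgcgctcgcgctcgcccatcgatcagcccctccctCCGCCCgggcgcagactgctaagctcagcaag
Syt2 promoter 2, chr1:134709050-134709349, plus strand: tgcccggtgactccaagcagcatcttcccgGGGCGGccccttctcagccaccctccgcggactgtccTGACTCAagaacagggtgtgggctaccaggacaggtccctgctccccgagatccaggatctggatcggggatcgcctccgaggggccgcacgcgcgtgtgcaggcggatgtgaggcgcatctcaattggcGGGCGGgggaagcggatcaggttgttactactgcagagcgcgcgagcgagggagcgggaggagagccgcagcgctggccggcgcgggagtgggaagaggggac
Sv2c promoter, chr13:96132528-96132827, minus strand: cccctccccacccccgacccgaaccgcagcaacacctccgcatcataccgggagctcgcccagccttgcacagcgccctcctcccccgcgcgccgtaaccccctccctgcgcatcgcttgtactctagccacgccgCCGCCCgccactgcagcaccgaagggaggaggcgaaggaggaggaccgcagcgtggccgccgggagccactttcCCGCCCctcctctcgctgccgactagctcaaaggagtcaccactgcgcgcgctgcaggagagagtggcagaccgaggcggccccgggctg
Cplx1 promoter, chr5:108549978-108550277, minus strand: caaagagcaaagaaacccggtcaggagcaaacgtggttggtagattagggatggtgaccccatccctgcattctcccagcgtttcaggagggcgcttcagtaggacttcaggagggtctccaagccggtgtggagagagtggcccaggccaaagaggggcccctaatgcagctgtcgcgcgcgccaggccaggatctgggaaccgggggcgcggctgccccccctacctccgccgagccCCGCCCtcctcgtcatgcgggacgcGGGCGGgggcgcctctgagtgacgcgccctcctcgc
Cplx2 promoter, chr13:54302306-54302605, plus strand: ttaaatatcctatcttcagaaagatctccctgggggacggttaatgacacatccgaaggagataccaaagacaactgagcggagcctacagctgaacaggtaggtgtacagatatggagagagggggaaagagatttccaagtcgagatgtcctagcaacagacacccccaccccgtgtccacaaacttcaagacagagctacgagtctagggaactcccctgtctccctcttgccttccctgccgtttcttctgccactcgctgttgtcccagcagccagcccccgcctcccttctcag
Syp promoter, chrX:7638330-7638629, plus strand: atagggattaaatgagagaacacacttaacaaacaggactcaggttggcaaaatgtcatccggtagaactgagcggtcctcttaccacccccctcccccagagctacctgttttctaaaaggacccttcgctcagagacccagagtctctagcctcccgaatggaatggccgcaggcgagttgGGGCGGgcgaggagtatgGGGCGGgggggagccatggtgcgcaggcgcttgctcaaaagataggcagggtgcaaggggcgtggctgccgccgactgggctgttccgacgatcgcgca
RefSeq promoters were found for 35 of the 48 members, 45 promoters in all. A GC box occurred in 68.9% of these and in 35.7% of all 32851 promoters of the same length, beside a median GC content of 62.7% and 52.7%. Both Syt2 promoters and those of Sv2c, Cplx1 and Syp held at least 2 GC boxes, and the Cplx2 promoter held none of the motifs searched. The motif of the cyclic AMP response element (TGACGTCA, either strand) occurred in 4.44% of member promoters and 1.79% of all, the AP-1 motif in 4.44% and 5.2%, and the TATA box (TATAAA, either strand) in 6.67% and 13.6%. No motif contains another, and overlapping matches were counted separately.

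Among the vesicle proteins, the synapsins, which tether vesicles to each other in the reserve pool, did not all separate the same populations. Syn1 was the most abundant of them, at 994, 917 and 839 CPM in NA, 859.9, 1113 and 772 in PFC, 792, 721 and 851 in RSC and 642, 686 and 596 CPM in VHN. It was called higher in NA and PFC at log2 fold change 0.37, SE 0.11, edgeR adjusted p = 0.0327, though the libraries of the 2 sides overlapped, and leaving out any 1 of 8 libraries, every RSC and VHN library among them, ended the call (log2 fold change 0.28 to 0.42). Syn3 stood at 45.2, 36.01 and 42.8 CPM in NA, 116, 103 and 12.5 in PFC, 6.52, 5.85 and 21.2 in RSC and 4.67, 27.03 and 24.2 CPM in VHN. It was called higher in NA and PFC (log2 fold change 1.97, SE 0.53, edgeR adjusted p = 0.0195), with PFC replicate 3 within the range of RSC and VHN, and the call was lost without PFC replicate 1, RSC replicate 1 or RSC replicate 2 (1.74 to 2.39 over single omissions). Syn2 was at 167, 124 and 236 CPM in NA, 534, 464 and 297 in PFC, 219, 175 and 206 in RSC and 215, 249 and 172 CPM in VHN. All 3 PFC libraries lay above the other 9, and Syn2 was called higher in PFC in each pairwise test, by 1.29 on the log2 scale against NA (edgeR adjusted p = 0.0383), 1.11 against RSC (adjusted p = 0.0114) and 1.03 against VHN (adjusted p = 0.0297). The synapsin genes carry Timp1, Timp3 or Timp4 in an intron. These 3 genes were at 11.7 CPM or less in every library, far under the synapsin on which each lies for Syn1 and Syn2, whereas Syn3 in RSC and VHN was at a level close to theirs.

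SV2 proteins are vesicle glycoproteins that modulate release and act as receptors of botulinum neurotoxin A. Sv2c, which in the rodent brain is best known from the basal ganglia and motor nuclei, was at 1.12, 2.04 and 0.417 CPM in NA, 0, 0 and 0.469 in PFC, 19.04, 11.5 and 22.5 in RSC and 26.1, 49.4 and 18.9 CPM in VHN. Every RSC and VHN library exceeded every NA and PFC library, 36.5-fold between the means of the sides, with a log2 fold change of −5.79, SE 0.80, edgeR adjusted p = 0.000143. Sv2b, the most abundant SV2 gene, was lowest in PFC. It was at 2492, 3184 and 2383 CPM in NA, 1662, 1433 and 1195 in PFC, 2283, 2719.5 and 2738 in RSC and 2811, 2125 and 2057 CPM in VHN, and it did not pass the test between the sides (log2 fold change −0.32, SE 0.11, edgeR adjusted p = 0.0646). All 3 PFC libraries lay below the other 9. Sv2b was lower in PFC than in NA by 0.91 on the log2 scale (edgeR adjusted p = 0.0174), than in RSC by 0.85 (adjusted p = 0.00271) and than in VHN by 0.70 (adjusted p = 0.0158). Syn2 and Sv2b were the only members called in all 3 pairwise tests of 1 population with 1 sign, against 0.273% of all genes for PFC. Sv2a, the form found at nearly all synapses, ranged from 245 to 376 CPM and was not called in any test.

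Synaptophysin, Syp, is an abundant integral membrane protein of the vesicle and binds synaptobrevin. Its level was 1796, 1784 and 1085 CPM in NA, 1802, 1651 and 1378 in PFC, 701, 554 and 419 in RSC and 677, 724 and 603 CPM in VHN. All 6 NA and PFC libraries were above all 6 RSC and VHN libraries, 2.58-fold in the means, with a log2 fold change of 1.37, SE 0.15, edgeR adjusted p = 1.38e-05. The related synaptoporin gene Synpr, known from hippocampal mossy fibres, stayed at or under 2.77 CPM.

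**Figure D2:**
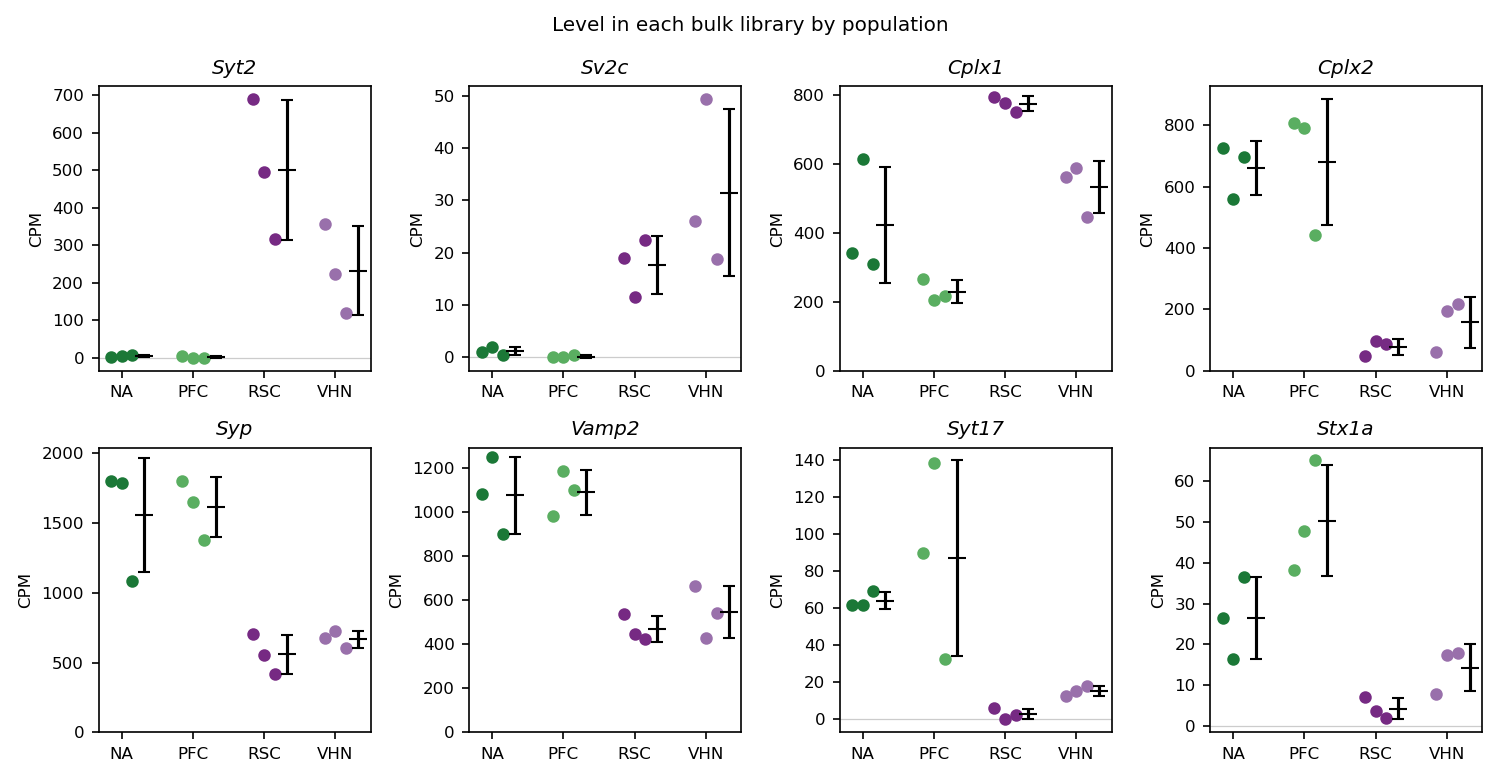
Points are the TMM-scaled CPM of 8 members in each bulk library (3 per population), and black bars are the mean ± SD. Syt2 and Sv2c lie near 0 in NA and PFC, Cplx1 and Cplx2 run in opposite directions, and Syp, Vamp2, Syt17 and Cplx2 separate the pairs with no overlap.

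Among the calcium sensors, synaptotagmin-1, the main sensor of synchronous release in the forebrain, was not called in any test, whereas its close relative synaptotagmin-2 showed the largest difference of any member. Syt1 was at 2724, 3345 and 2793 CPM in NA, 2069.6, 2298 and 2723 in PFC, 2673, 2663 and 2882 in RSC and 2652, 2385 and 2613 CPM in VHN. Its log2 fold change was −0.0004. Syt2 was at 2.80, 3.97 and 6.31 CPM in NA, 3.64, 0.346 and 0.0938 in PFC, 691, 496 and 318 in RSC and 356, 223 and 119.6 CPM in VHN. RSC replicate 1 was highest and VHN replicate 3 lowest on the RSC and VHN side, and that library lay above the highest NA library. The means of the sides differed 128-fold, and on the log scale the test gave a log2 fold change of −7.13, SE 0.55, edgeR adjusted p = 1.38e-06. Per length, Syt2 reached 2.62% to 12.9% of the summed FPKM of Syt1 and Syt2 in RSC and VHN libraries, and 0.00236% to 0.149% in those of NA and PFC. Syt1 was thus the more abundant of the pair in every library. Syt3, a sensor with high calcium affinity, was at 92.4, 192 and 69.7 CPM in NA, 54.6, 118 and 124 in PFC, 43.3, 32.6 and 34.01 in RSC and 72.96, 51.7 and 32.8 CPM in VHN. It was called higher in NA and PFC (log2 fold change 1.30, SE 0.30, edgeR adjusted p = 0.00722), with VHN replicate 1 above PFC replicate 1 and NA replicate 3. Syt7, a sensor of slow and sustained release (167 to 279 CPM), and Syt5 (128 to 261 CPM), were not called in any test. Syt6 at or under 5.13 CPM and Syt9 at 2.29 to 44.7 CPM were low. The Doc2 genes, sensors linked to spontaneous release, were at or under 15.1 CPM for Doc2a and at 1.07 to 95.4 CPM for Doc2b, and none of these 4 was called.

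Other synaptotagmins bind calcium weakly or not at all and serve trafficking of dense-core and other vesicles. Syt4 was at 612, 434 and 718 CPM in NA, 393, 338 and 284 in PFC, 929, 853 and 1003 in RSC and 921, 826 and 754 CPM in VHN. It was lower in every NA and PFC library than in any of RSC and VHN (log2 fold change −0.98, SE 0.13, edgeR adjusted p = 0.000105), and PFC was the lowest population. Syt11 followed the same direction to a smaller extent, at 829, 589 and 768 CPM in NA, 566, 596 and 686 in PFC, 985, 983 and 963 in RSC and 955, 822 and 835 CPM in VHN, with the highest NA library just above the lowest VHN library (log2 fold change −0.46, SE 0.11, edgeR adjusted p = 0.00794). Syt17 went the other way, at 61.6, 61.7 and 69.3 CPM in NA, 89.7, 138 and 32.6 in PFC, 6.11, 0.276 and 2.42 in RSC and 12.4, 15.4 and 17.8 CPM in VHN. RSC was nearly without it, and even the lowest PFC library exceeded the highest VHN library (log2 fold change 3.48, SE 0.52, edgeR adjusted p = 0.000294, 8.32-fold between the means). Syt12, Syt13 and Syt16 were not called, with Syt16 nearly level at 70.8 to 113 CPM.

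Of the SNAREs, Vamp2, the synaptobrevin of most forebrain synapses, was at 1081, 1248 and 899 CPM in NA, 981, 1185 and 1101 in PFC, 537, 445 and 426 in RSC and 663, 429.5 and 543 CPM in VHN. NA and PFC libraries lay above all others, 2.13-fold in the means (log2 fold change 1.10, SE 0.13, edgeR adjusted p = 2.4e-05). Its relative Vamp1, the synaptobrevin of many brainstem and spinal neurons, ranged from 16.9 to 252 CPM and was called only in PFC against RSC (lower in PFC by 1.64 on the log2 scale, edgeR adjusted p = 0.0411). The syntaxin gene Stx1a was low but uneven, at 26.5, 16.5 and 36.4 CPM in NA, 38.2, 47.7 and 65.1 in PFC, 7.10, 3.75 and 1.84 in RSC and 7.72, 17.3 and 17.8 CPM in VHN. PFC libraries were highest, RSC lowest, and NA replicate 2 lay within the range of VHN (log2 fold change 2.23, SE 0.42, edgeR adjusted p = 0.00179). Snap25 was at 14668, 17062 and 10254 CPM in NA, 8287, 11101 and 6251 in PFC, 14813, 16410.3 and 16409.9 in RSC and 12458, 10690.1 and 11738 CPM in VHN. It differed among the 4 populations (edgeR adjusted p = 0.0149), and the pairwise call was PFC below RSC, by 0.89 on the log2 scale (edgeR adjusted p = 0.00413), while a log2 fold change of −0.31, SE 0.12, edgeR adjusted p = 0.109 between the sides did not pass. Between the sides, Snap25 (adjusted p = 0.0262) and Sv2b (adjusted p = 0.0168) were called lower in NA and PFC by edgeR with no scaling of library sizes. Snap91, which encodes the clathrin adaptor AP180 that sizes recycled vesicles, was at 352, 358 and 292 CPM in NA, 382, 364 and 424 in PFC, 273, 278 and 267 in RSC and 296, 236 and 264 CPM in VHN. It was called higher in NA and PFC (log2 fold change 0.42, SE 0.12, edgeR adjusted p = 0.0246), with VHN replicate 1 just above NA replicate 3, and the call was lost in 6 of 12 single-library omissions, namely without NA replicate 1, PFC replicate 3, RSC replicate 2 or 3, or VHN replicate 2 or 3 (0.38 to 0.47).

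The main complexin genes of the forebrain ran against each other. Cplx1 was at 342, 615 and 311 CPM in NA, 267, 205 and 218 in PFC, 795, 777 and 752 in RSC and 564, 588 and 447 CPM in VHN. RSC libraries were highest and PFC lowest, and NA replicate 2 lay above all 3 VHN libraries (log2 fold change −1.04, SE 0.16, edgeR adjusted p = 0.000319). Cplx2 was at 726, 561 and 697 CPM in NA, 807, 790.1 and 443 in PFC, 50.01, 98.5 and 88.2 in RSC and 63.2, 195 and 218 CPM in VHN. No library of NA or PFC overlapped one of RSC or VHN, the means differed 5.65-fold, and the test gave a log2 fold change of 2.58, SE 0.27, edgeR adjusted p = 1.09e-05. Compared per length, Cplx2 made up 28.8% to 63.1% of the summed FPKM of Cplx1 and Cplx2 in NA and PFC libraries and 2.72% to 17.8% in RSC and VHN libraries. The balance of the pair therefore ranged from about equal in PFC to almost all Cplx1 in RSC. Cplx3, a complexin of retina and subplate, was at or under 4.10 CPM and too low to test.

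At the active zone, the called differences between the sides were under 1 on the log2 scale. Munc13-1, Unc13a, which opens syntaxin for SNARE assembly, was at 377, 437 and 378 CPM in NA, 274, 367 and 404 in PFC, 286, 316 and 282 in RSC and 289, 271 and 262 CPM in VHN. Its call was marginal (log2 fold change 0.39, SE 0.13, edgeR adjusted p = 0.0492), the libraries overlapped, and 11 of 12 single-library omissions ended it (0.33 to 0.46), all but that of PFC replicate 1. Without scaling of library sizes the calls of Syn1 (edgeR adjusted p = 0.0935), Snap91 (adjusted p = 0.0528) and Unc13a (adjusted p = 0.0978) were lost as well. In the deposited FPKM the order of Unc13a differed. RSC was highest at a mean of 97.9 and PFC lowest at 44.4, with NA at 83.5 and VHN at 82.8. The source of this difference between FPKM and CPM was not tested. Unc13b ranged from 46.5 to 128 CPM and was not called, and Unc13c, known from cerebellum, was at or under 1.12 CPM. Rims1, the scaffold that ties vesicles to calcium channels, was at 198, 310.1 and 194 CPM in NA, 250.4, 249 and 185 in PFC, 176, 137 and 118 in RSC and 120.4, 147 and 144 CPM in VHN. NA and PFC libraries were all above those of RSC and VHN (log2 fold change 0.72, SE 0.17, edgeR adjusted p = 0.00922). Bassoon, Bsn, a giant scaffold of the active zone, was at 721, 913 and 767 CPM in NA, 756, 951 and 731 in PFC, 639, 675 and 616 in RSC and 516, 637 and 586 CPM in VHN. It too did not overlap between the sides, with a small difference (log2 fold change 0.40, SE 0.11, edgeR adjusted p = 0.0206), and the call was lost without PFC replicate 2, RSC replicate 3 or VHN replicate 1 (0.34 to 0.44). Its partner Piccolo, Pclo, the most abundant active zone gene per length, was at 1654, 2099 and 1700.0 CPM in NA, 1461, 1512 and 1419 in PFC, 1879, 2071 and 1996 in RSC and 1403, 1519.8 and 1711 CPM in VHN. It did not pass the test between the sides (a log2 fold change of −0.10, SE 0.09, edgeR adjusted p = 0.513), PFC was below RSC by 0.44 on the log2 scale (edgeR adjusted p = 0.0379), and 2 of its PFC entries carried the authors' status FAIL and were kept. Rims2 was at 40.4 to 175 CPM, and Rims3 and Rims4, short forms of the family, were at or under 6.30 and 26.5 CPM, none of them called.

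Of the Rab3 proteins, Rab3a, the GTPase that brings vesicles to RIM, was at 478, 679.6 and 381 CPM in NA, 507, 382 and 629 in PFC, 287, 249 and 265 in RSC and 309, 317 and 271 CPM in VHN. Every NA and PFC library exceeded every RSC and VHN library, 1.80-fold in the means (log2 fold change 0.85, SE 0.15, edgeR adjusted p = 0.00131). Rab3c was at 2245, 2449 and 1794 CPM in NA, 1217, 1221 and 1456 in PFC, 1909, 1938 and 1909.8 in RSC and 1757, 1485 and 1795 CPM in VHN. It differed among the populations (edgeR adjusted p = 0.00994), with PFC lower than NA by 0.74 (edgeR adjusted p = 0.0238) and lower than RSC by 0.56 (adjusted p = 0.0141) on the log2 scale. Rab3b and Rab3d were low, at or under 31.6 and 25.8 CPM, and were not called. Nsf, the ATPase that separates spent SNARE complexes, was at 1436, 1531 and 1292 CPM in NA, 1315, 1501 and 1277 in PFC, 1148, 1306 and 1189.5 in RSC and 1219.8, 1229 and 1014 CPM in VHN, and it did not pass the test between the sides (a log2 fold change of 0.23, SE 0.09, edgeR adjusted p = 0.111). Its adaptor beta-SNAP, Napb, was at 1296, 1283 and 1208 CPM in NA, 1152, 1133 and 1179 in PFC, 819, 835 and 875 in RSC and 899.6, 829.9 and 847 CPM in VHN. This was a small and even difference, with no overlap between the sides (log2 fold change 0.50, SE 0.08, edgeR adjusted p = 0.000676). The ubiquitous form Napa was at 67.2 to 201 CPM and was not called.

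**Figure D3:**
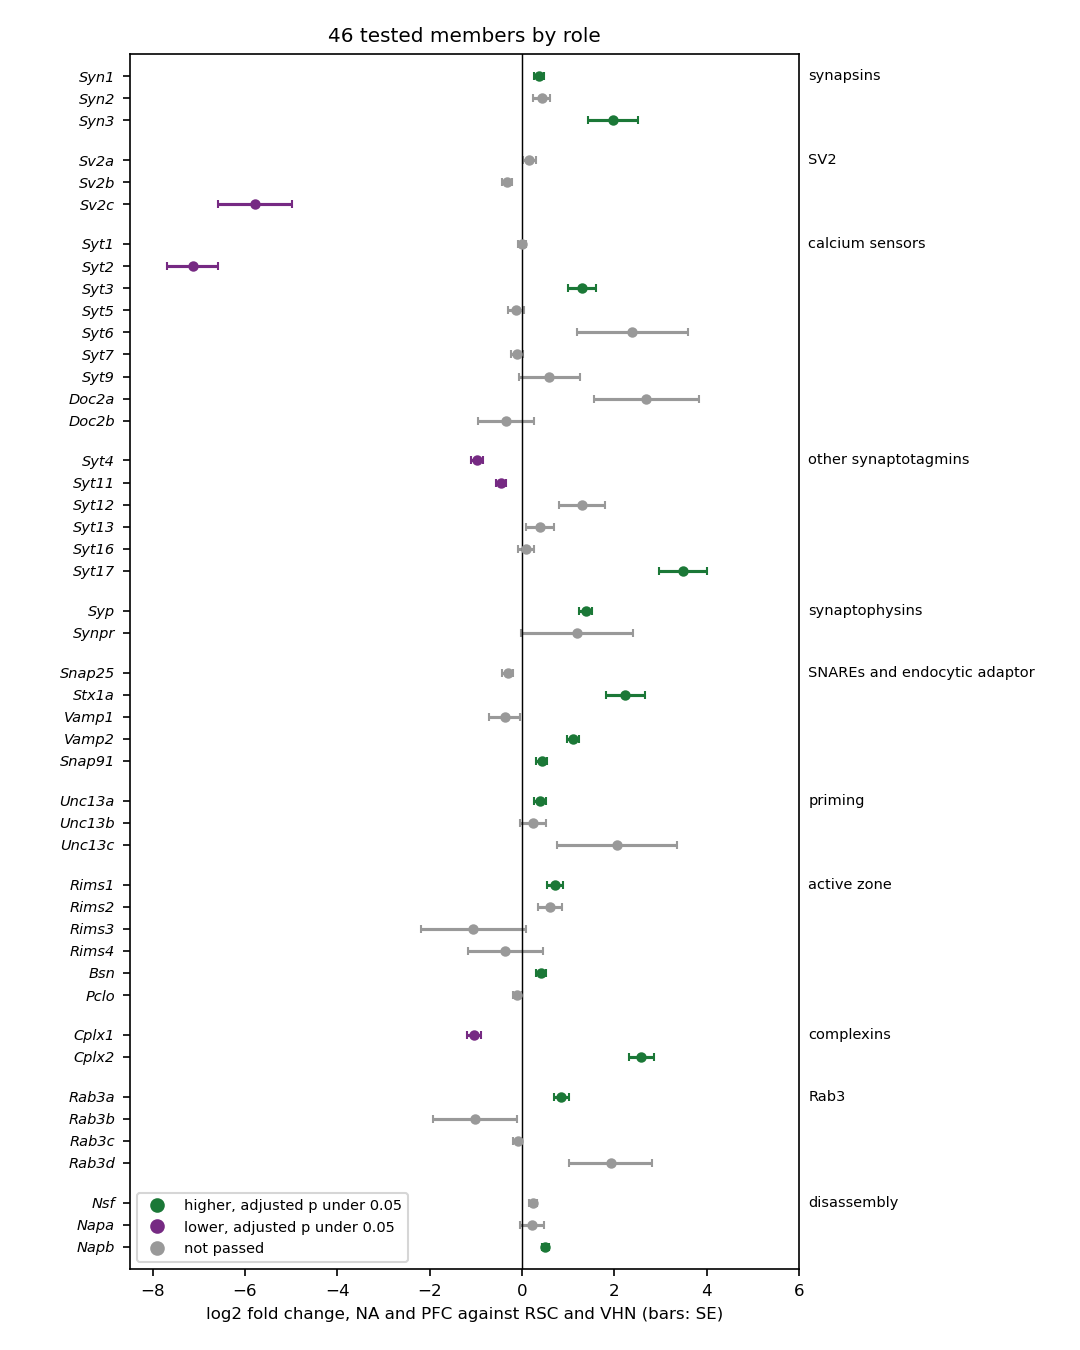
Points are the log2 fold change of each of the 46 tested members between NA and PFC together and RSC and VHN together, with bars of 1 SE, grouped by role. Green members were called higher, purple members lower and grey members did not pass; Syt2 and Sv2c lie at −7.13 and −5.79, and Syt17 and Cplx2 at 3.48 and 2.58.

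By pairs of populations the counts of members called were uneven. PFC against RSC called 20 members, 10 in each direction, against 9.76% of all genes, or 4.88% each way. NA against RSC called 12 members against 5.83% of all genes, 8 of them higher (3.47% of genes) and 4 lower (2.36%). PFC against VHN called 11 against 5.09%, 6 higher (2.41%) and 5 lower (2.67%). NA against VHN called 6 against 2.75%, 4 higher (1.62%) and 2 lower (1.14%). NA against PFC called 3 against 0.438% of all genes, Sv2b and Rab3c higher in NA (0.402%) and Syn2 lower (0.0359%). RSC against VHN called 0 members and 0 of all genes by edgeR, with 7 members and 721 genes at an unadjusted p under 0.05, and DESeq2 called 1 member and 59 genes. These comparisons share libraries, so their values are set side by side only. Single libraries moved some counts by over 1.5 times. NA against PFC called 1 member without NA replicate 1, NA replicate 2 or PFC replicate 2 and 6 without NA replicate 3, and NA against RSC called 6 without RSC replicate 2 or RSC replicate 3. PFC against RSC called 12 without RSC replicate 2, and PFC against VHN called 18 without NA replicate 2 and 7 without VHN replicate 1. The members called in all 4 comparisons across the sides were 6, namely Syt2, Sv2c, Cplx2, Syp, Vamp2 and Napb. For Syt2 the log2 fold change was −6.83 in NA and −8.54 in PFC against RSC, and −5.73 and −7.43 against VHN. For Cplx2 it was 3.07 and 3.11 against RSC, and 2.06 and 2.10 against VHN.

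In all, 23 of the 46 tested members passed neither the 4-group test nor the test of the sides. They included 12 with a mean of at least 50 CPM, whose log2 fold changes between the sides ran from −0.38 to 0.60. Among them were genes of wide use in the forebrain, such as Syt1, Sv2a and Nsf.

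Of 92 further genes listed for the pathway, 91 had a row and 82 were tested. Of these, 15 (18.3%) were called among the populations, against 8.93% of all genes, and between the sides 15 were higher in NA and PFC, against 7.58% of all genes, and 3 lower, against 6.66%. These genes were not matched by level. Among all genes with a mean of at least 50 CPM, 20.9% were called among the populations and 28.4% between the sides in either direction, against 22% of the 82 pathway genes. The vesicle protein gene Scamp5 had the lowest adjusted p of the 4-group test (log2 fold change 1.19, SE 0.15, edgeR 4-group adjusted p = 0.000201). Of genes that act in clathrin-mediated vesicle retrieval, those among the 8 lowest adjusted p went both ways. Higher in NA and PFC were the endophilin gene Sh3gl2 (log2 fold change 0.93, SE 0.12, edgeR 4-group adjusted p = 0.000726) and the AP-2 subunits Ap2b1 (log2 fold change 0.81, SE 0.11, edgeR 4-group adjusted p = 0.000869) and Ap2a2 (log2 fold change 1.39, SE 0.19, edgeR 4-group adjusted p = 0.00117). The clathrin light chain gene Clta was lower (log2 fold change −1.69, SE 0.31, edgeR 4-group adjusted p = 0.0119). Also higher were the kinase subunit Camk2a (log2 fold change 0.72, SE 0.12, edgeR 4-group adjusted p = 0.00397), the active zone scaffold Erc2 (log2 fold change 0.95, SE 0.19, edgeR 4-group adjusted p = 0.00561) and the tomosyn gene Stxbp5l, an inhibitor of SNARE assembly (log2 fold change 1.06, SE 0.18, edgeR 4-group adjusted p = 0.0066).

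Marker lists of other cells were summed in each library. The 12 interneuron markers summed to 238 to 1011 CPM in NA and PFC libraries and 385 to 661 CPM in RSC and VHN libraries, of which Cck, a gene that pyramidal cells also express, took 238 to 1008 and 266 to 509.7 CPM. Without Cck, the sum was 64.1 CPM in RSC replicate 2, 264 CPM in RSC replicate 3, 189.5 CPM in VHN replicate 3 and 14.5 CPM or less in the other 9. Of the 12 markers, 8 were tested between the sides and 4 were called, all lower in NA and PFC. Among the called was Pvalb, at 5.25 to 8.79 CPM in RSC, 0.683 to 3.27 CPM in VHN and 0.932 CPM or less in NA and PFC libraries. The inhibitory marker Gad2 reached 43.3 CPM in RSC replicate 2, 177 CPM in RSC replicate 3 and 91.9 CPM in VHN replicate 3 but was 7.40 CPM or less in the other 9 libraries, and Vip was at 0 in all 12. Syt2, which fast-spiking interneurons also express, was highest in RSC replicate 1, where Gad1 and Gad2 were at 0 and Pvalb at 5.25 CPM. Sv2c was highest in VHN replicate 2, where Gad2 was at 0.238 CPM and Pvalb at 3.16 CPM. Without those 3 libraries, 9 members were called among the populations, against 2.79% of the 16007 genes tested in that fit. Between the sides 5 members were higher in NA and PFC, against 2.71% of genes (Syt17, Syp, Vamp2, Cplx2 and Napb) and 4 lower, against 1.96% (Sv2c, Syt2, Syt4 and Cplx1), with a log2 fold change of −7.51 for Syt2 and 3.07 for Cplx2. Calls of the other 10, Syn1, Syn3, Syt3, Stx1a, Snap91, Unc13a, Rims1, Bsn, Rab3a and Syt11, did not hold there, with RSC left at 1 library that is assumed to vary like the others. Their log2 fold changes there were −0.47 for Syt11 and 0.35 to 2.48 for the other 9, against −0.46 and 0.37 to 2.23 with all libraries, beside a median of all genes of 0.18. The 6 markers of CA1 pyramidal cells summed to 638 to 1936 CPM in libraries of NA or PFC, against 415 to 519 CPM in those of RSC or VHN, and 4 of 6 were called, 3 of them higher. The 8 pyramidal markers, which include the pathway gene Camk2a, summed to 3466 to 5155 and 2716 to 3344 CPM, with 4 called higher and 1 lower. The 7 general neuron and housekeeping genes summed to 5641 to 8053 and 4917 to 5824 CPM, with 2 called higher and 2 lower. The 7 astrocyte genes summed to 285 to 598 and 63.6 to 400.0 CPM, of which Slc1a2 took 279 to 585 and 61.1 to 387 CPM. The 6 vascular genes, with Cldn5 at 0, summed to 24.0 to 91.8 and 2.08 to 21.5 CPM, of which Rgs5 took 23.8 to 91.8 and 1.31 to 21.5 CPM. The part of these other cells in the members' differences was not tested.

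The single cells address whether members that differed between bulk populations also differed between cells. Of 384 wells, 348 passed a minimum of 1000 detected genes, and their median depth was 112401 counts. The labels list 8 single-cell samples, and nothing links them to the 4 plates of the count file, so the wells are treated as 1 pooled sample. Cells are not replicates, so shares of wells with at least 1 count are given with exact 95% binomial intervals, which cover counting error only, and no test is made. Rab3a was detected in 336 of the 348 wells, Syt1 in 335 and Snap25 in 334. At the other end, Cplx3 was in 0 wells, a share of up to 0.862% by a limit of 3 counts in all wells and of up to 1.05% by the exact interval, Synpr in 1, Syt6 in 2 and Rims3 in 3. The 14 wells without Snap25 were among 21 wells with no count of either vesicular glutamate transporter, Slc17a7 or Slc17a6. Of these 21 wells, 16 were in rows A, B, E and F of the column with the same number as the last digit of the plate's name, 17 held Vim, and their median was 36304 counts against 113830 in the other 327 wells. They are left out of the shares below unless said, a choice made after the data were seen.

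Wells were divided by the neuropeptide gene Nts, which also divided the bulk libraries, where its mean over NA and PFC libraries was 20.1 CPM and over RSC and VHN libraries 313 CPM. At 100 CPM or more of Nts, 204 wells were Nts-high, and 65 wells lay near that level, from 50 to 200 CPM. Each well was thinned to 20000 counts, which left 204 Nts-high and 121 other wells with a transporter count. Intervals of the 2 kinds of well stood apart for 6 of the 47 members: Syt2, Sv2c, Syt4, Rab3c, Cplx2 and Rab3b. With the 15 of the 21 wells that thinning kept included among the others, they stood apart for 18, and 5 of the 6 above, all but Cplx2, were among these.

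**Figure D4:**
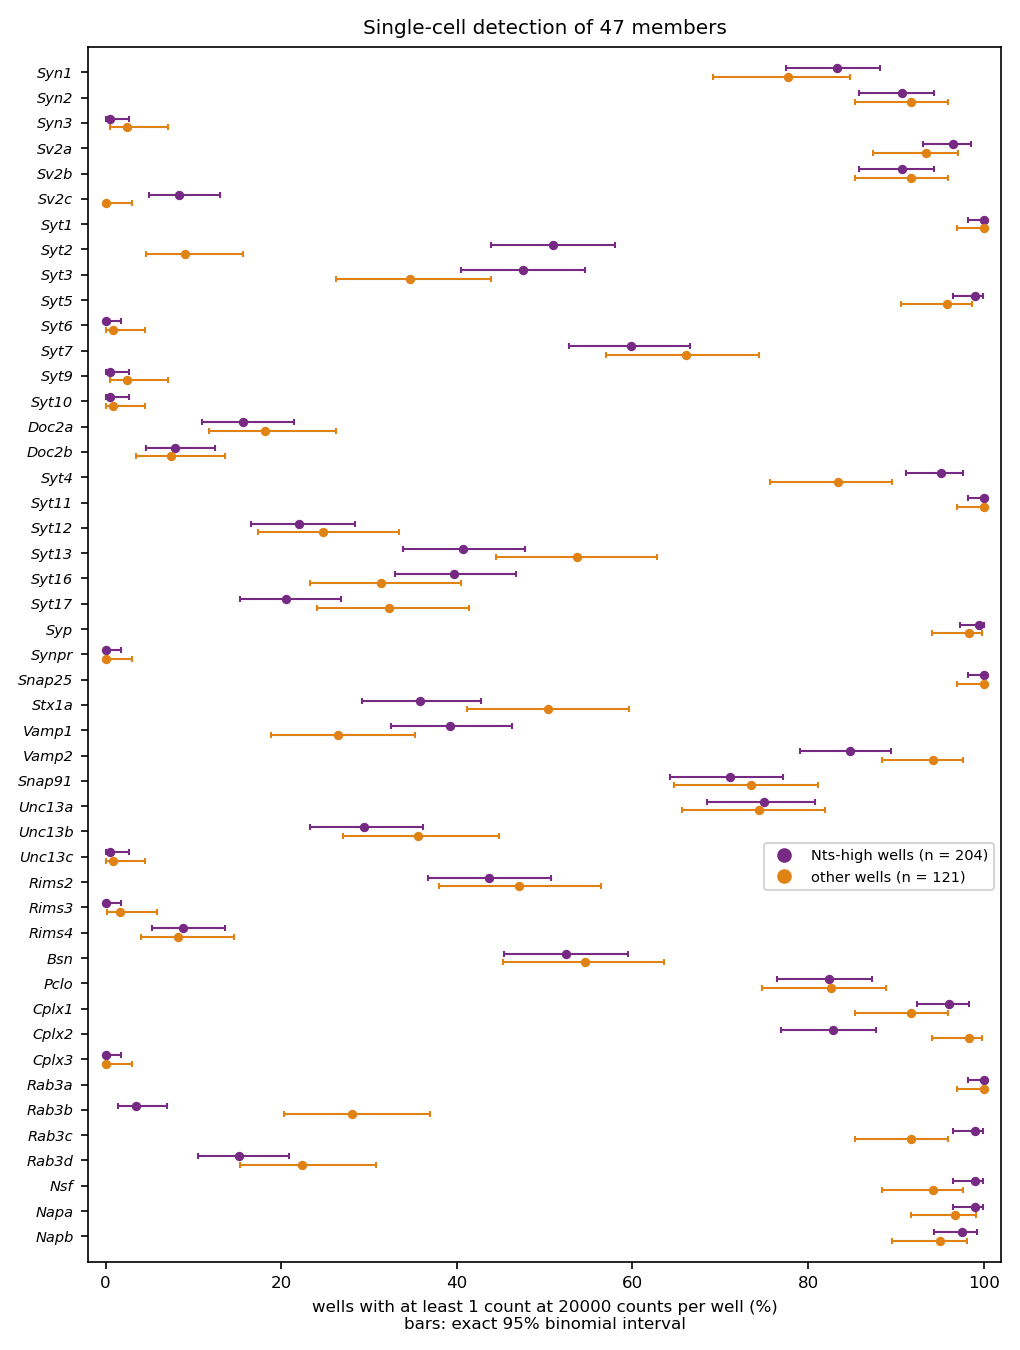
Points are the share of wells with at least 1 count of each of 47 members after thinning to 20000 counts, in 204 Nts-high wells (purple) and 121 other wells with a vesicular glutamate transporter count (orange), and bars are exact 95% binomial intervals. The intervals are apart for Sv2c, Syt2, Syt4 and Rab3c, higher in Nts-high wells, and for Cplx2 and Rab3b, lower.

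Syt2 was detected in 50.98% (interval 43.9% to 58.03%) of Nts-high wells and 9.09% (interval 4.63% to 15.7%) of the others. Its mean level over all wells of each kind was 118 and 14.3 CPM. The order held on each plate, with unthinned shares in Nts-high wells of 60% on Q5, 45.3% on Q6, 68.6% on Q7 and 40% on Q8, against 3.03% to 11.8% in the other wells, the 21 included. None of the 21 wells without a transporter count and none of the 25 wells under 1000 detected genes held Syt2, which by a limit of 3 counts allows shares of up to 14.3% and 12%; the exact upper bound for the 21 wells is 16.1%. Sv2c was nested within these cells. Unthinned, it was in 23 wells, all 23 held Syt2 and all 23 were Nts-high, so Sv2c marked 11.3% of the Nts-high wells and 19.0% of the 121 wells with Syt2. In those 23 wells Sv2c ran from 6.70 to 246 CPM with a median of 69.1 CPM, and Nts from 243 to 2059 CPM. Plate Q8 had Sv2c in 4.44% of its Nts-high wells and the other plates in 11.8% to 14.5%. Of the 121 wells with Syt2, 110 were Nts-high. Gad1 or Gad2 was at 100 CPM or more in 2 wells, neither of them Nts-high, and 1 of these held Syt2.

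The complexins also differed between these cells. Cplx2 was in 82.8% (interval 76.96% to 87.7%) of Nts-high wells and 98.3% (interval 94.2% to 99.8%) of the others, and its mean was 288 against 602 CPM. Cplx1 was in 96.1% (interval 92.4% to 98.3%) of Nts-high wells and 91.7% (interval 85.3% to 95.97%) of the others, intervals that overlap, with means of 442 and 294 CPM. Unthinned and with the 21 wells among the others, the order of the Cplx2 shares turned, 4.33 percentage points higher in Nts-high wells. Unthinned among wells with a transporter count alone, Cplx2 was in 94.6% of Nts-high wells and 100% of the others. Divided further, mean Cplx2 was 65.3 CPM in the 23 wells with Sv2c, 150 CPM in 87 Nts-high wells with Syt2 and no Sv2c, 469 CPM in 94 Nts-high wells with neither, and 602 CPM in 123 other wells. Mean Cplx1 in the same order was 544, 512, 351 and 294 CPM. Median depth was alike, between 111425 and 119494 counts in these 4 classes. Nts-high wells without Syt2 had complexin levels nearer to those of the wells low in Nts than to those of wells with Syt2. They were also lower in Nts itself, at a mean of 389.7 CPM (median 247 CPM) against 934 CPM (median 869 CPM) in Nts-high wells with Syt2 and no Sv2c. Calb1 was in 34.0% of them and in 6.90% of the latter. In the 21 wells without a transporter count, mean Cplx2 was 291 CPM and mean Cplx1 79.2 CPM. Only 7 of these wells held Cplx2, 1 of them at 4120 CPM, and 5 held Cplx1, so both medians were 0 CPM.

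**Figure D5:**
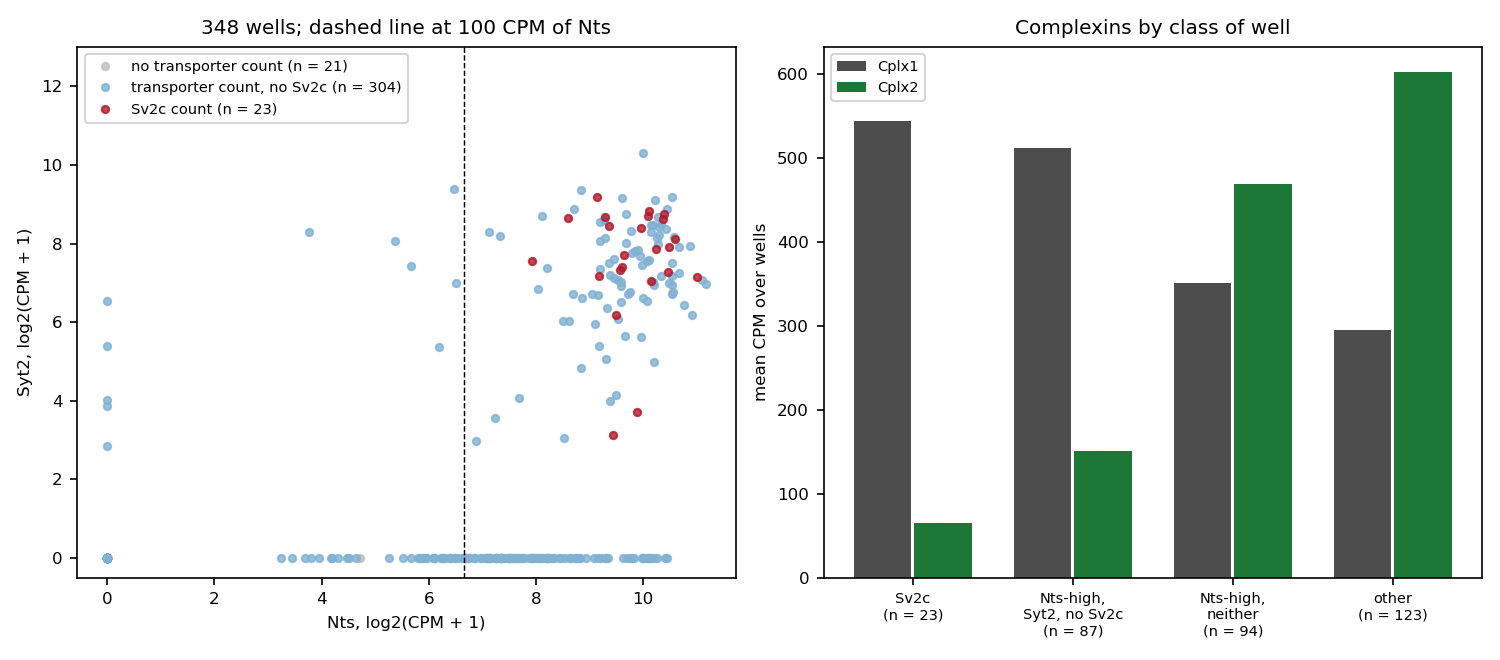
Left, each point is 1 of 348 wells by its Nts and Syt2 level, log2(CPM + 1), with wells holding Sv2c in red and wells without a transporter count in grey. Right, bars are the mean CPM of Cplx1 and Cplx2 over the wells of 4 classes. All red points lie right of the line at 100 CPM of Nts and hold Syt2, and the 2 complexins cross over from left to right.

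Of the other members, Syt4 was in 95.1% (interval 91.2% to 97.6%) of Nts-high wells and 83.5% (interval 75.6% to 89.6%) of the others, with means of 325 and 233 CPM. Rab3c was in 99.02% (interval 96.5% to 99.9%) of Nts-high wells and 91.7% (interval 85.3% to 95.97%) of the others, with means of 493 and 347 CPM. Both were higher in the Nts-high cells by share and by mean. Rab3b differed in the opposite direction and was in 3.43% (interval 1.39% to 6.94%) of Nts-high wells and 28.1% (interval 20.3% to 36.99%) of the others, with means of 6.96 and 66.5 CPM. Unthinned, 45 wells held Rab3b, at 12.7 to 1018 CPM, and 25 of these also held the calcium buffer gene Calb1. Rab3b was in 22.9% of the 109 wells with Calb1 and in 9.09% of the 220 wells with a transporter count and no Calb1. In bulk, Rab3b was at or under 31.6 CPM in every library and was not called. Its bulk mean was 16.0 FPKM in RSC (SD 20.4), 4.39 in PFC (SD 4.05), 1.65 in VHN (SD 2.48) and 1.51 in NA (SD 0.373). The order of RSC and NA was thus not that of the wells, with a wide spread in RSC.

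Intervals of the 2 kinds of well did not stand apart for all members that differed in bulk between the sides. Syp was in 99.5% (interval 97.3% to 100%) of Nts-high wells and 98.3% (interval 94.2% to 99.8%) of the others, with means of 373 and 429 CPM, and Vamp2 in 84.8% (interval 79.1% to 89.4%) of Nts-high wells and 94.2% (interval 88.4% to 97.6%) of the others. Syt17 was in 20.6% (interval 15.3% to 26.8%) of Nts-high wells and 32.2% (interval 24.02% to 41.3%) of the others and Stx1a in 35.8% (interval 29.2% to 42.8%) of Nts-high wells and 50.4% (interval 41.2% to 59.6%) of the others. For Vamp2, Syt17 and Stx1a the share was lower in Nts-high wells, the direction of RSC and VHN in bulk, but the intervals overlapped. Their means in Nts-high and other wells were also in that direction. They were 158 and 191 CPM for Vamp2, 23.2 and 54.7 CPM for Syt17 and 35.8 and 61.8 CPM for Stx1a. Syt3, called higher in NA and PFC in bulk, went the other way, also with intervals that overlapped. It was in 47.5% (interval 40.5% to 54.6%) of Nts-high wells and 34.7% (interval 26.3% to 43.9%) of the others, with means of 64.1 and 56.2 CPM. Syn2, which marked PFC in bulk, was at a mean of 312 CPM in wells with Sv2c, 248 CPM in Nts-high wells with Syt2 alone, 358 CPM in Nts-high wells with neither and 519.7 CPM in the other wells. Syn3 was in 0.490% (interval 0.0124% to 2.70%) of Nts-high wells and 2.48% (interval 0.514% to 7.07%) of the others. Snap25, Syt1, Syt11 and Rab3a were in 100% of wells of both kinds, so detection could not separate them at this depth. Their means in Nts-high and other wells were 1328 and 1295 CPM for Snap25, 2312 and 2341 for Syt1, 758 and 739 for Syt11 and 1777 and 1660 CPM for Rab3a. For Rab3a this order was opposite to that of the sides in bulk.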

How the data were processed

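The bulk table names its columns as Cuffdiff tracking output by replicate, per the file headers. Its raw fragments, deposited without normalization, are expected counts per gene for each library. Since 8.51% of the values above 0 had decimals, every value was rounded before testing. FPKM values were also deposited by the authors. They served to compare genes per length, and for Rab3b, Unc13a and Bsn their population means are given as well. The submitters' processing notes name build mm9; the aligner, annotation, strand setting and treatment of shared reads are not given in the sources used here, so values of overlapping or paralogous genes are uncertain. The single-cell values are whole-number counts of a gene in a well, as deposited, and use of molecular identifiers is not stated. Symbols came from GENCODE M21 by Ensembl identifier (87.5% of 37607 gene rows), and 92 spike-in rows at 0 were left out. Replicates run from 0 in the table and from 1 in the labels; they were matched in order, which affects names of libraries but no group.

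Genes passing filterByExpr of edgeR 4.0.16 (13916) were scaled by TMM and entered 1 quasi-likelihood fit over 12 libraries with 4 groups and no covariate (biological coefficient of variation 0.736, with 8 degrees of freedom left). Tested were the 4 groups together, NA and PFC against RSC and VHN, and 6 pairwise contrasts, each adjusted over all genes tested. The SE is the size of the log2 fold change over the square root of F. The script was tested on simulated data. DESeq2 1.42.0 was an alternative. Values in every library are given for members called in the 4-group test or between the pairs, and for the most abundant member of each role per length; of the other pathway genes, the 8 with the lowest adjusted p of the 4-group test are named. The members, gene lists, Nts threshold and tests were chosen with earlier results of these data known, so counts of calls are descriptions.

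Wells with at least 1000 detected genes were kept, and no doublet caller was run on these sorted wells. The wells were treated as 1 pooled sample with no projection label. To compare shares, each well was thinned to 20000 counts, which left out 8 wells, none of them Nts-high. Bulk depth was 10777271 to 20904122 gene fragments, and kept wells held 2795 to 322542 counts.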

Additional observations from a re-analysis of the deposited data

Results flagged for a closer look

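The 25 wells with under 1000 detected genes entered no comparison, and 6 members were found there in more than the 12% of wells that 3 counts allow. Rab3a was in 36% of these wells and Syt1 in 24%. Syt5, Syt11, Syp and Cplx2 were each in 16%. Syt2, Sv2c and Rab3b had no count in any of the 25. The source of these counts was not tested.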

How the results depend on the processing

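Counts of called members held within 1.5 times under most alternatives. The exceptions were the pairwise counts and the omission of the 3 libraries with interneuron transcripts. Without those 3 libraries, 9 members were called among the populations and 5 were higher in NA and PFC, and NA against PFC called 1, NA against RSC 2, NA against VHN 4, PFC against RSC 6 and PFC against VHN 9; fewer libraries were tested, and the median of all genes moved to 0.18 on the log2 scale between the sides. NA against PFC called 0 members with no scaling, 0 when only these populations were fitted, 6 by DESeq2 and 9 with no filter on low counts. DESeq2 also called 11 in NA against VHN, 17 in PFC against VHN and 1 in RSC against VHN, and 4 were called in RSC against VHN and 9 in NA against VHN with no filter. PFC against VHN called 17 without NA replicate 2 and PFC replicate 3. The cause was not tested. With no scaling the split was 11 higher and 7 lower, and the median of all genes moved to −0.15 in NA against PFC and −0.19 in NA against VHN.

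Leaving out 1 library at a time gave 15 to 18 members called among the populations, 10 to 14 higher and 5 to 7 lower in NA and PFC, 1 to 6 in NA against PFC, 6 to 12 in NA against RSC, 4 to 7 in NA against VHN, 12 to 22 in PFC against RSC, 7 to 18 in PFC against VHN and 0 to 0 in RSC against VHN. The log2 fold change of Syt1, −0.0004, turned to 0.0221 with DESeq2 size factors, 0.022 by DESeq2, 0.00909 with at least 50 fragments in 3 libraries and 0.0376 without the 3 libraries with interneuron transcripts, and ran from −0.0590 to 0.0426 over single omissions. Among wells, the difference in Cplx2 share, −9.07 percentage points with 15 of the 21 wells without transporter counts among the others, turned to 4.33 when counts were not thinned, which also brought in the other 6 of these wells. Of the alternatives for single members, in bulk or in wells, 526 stayed the same. In bulk this means that direction and call held, and in wells that both shares stayed within their main intervals. In bulk, 48 lost a call and 13 gained one. In wells, 34 kept direction with at least 1 share outside its main interval. Over bulk and wells together, 13 turned.

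Replicate numbers gave no pairing: deviations of same-numbered libraries correlated at −0.03 to 0.04, 0 of 18 pairs exceeded 0.1 and 1 of 12 libraries was nearest to its own number. With a replicate block, 17 members were called among the populations, 13 higher and 6 lower between the sides, and the pairwise counts in the order above were 3, 11, 6, 19, 9 and 0. With about 3 libraries per population and a biological coefficient of variation of 0.736, small differences could be missed.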
